A study of Mus musculus with 10 samples.

Results

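Transcripts of 9 genes of homologous recombination and its damage signalling were examined in the 2 epithelial layers of the mouse mammary gland: Brca1, Bard1, Brip1, Palb2, Brca2, Rad51c, Rad51d, Atm and Chek2. The genes were given as a list of names, without a threshold on their values but with earlier results of these data known, and all 9 were found among the 24594 genes of the count table and passed the filter on low counts. Luminal cells, which face the lumen of the ducts, and basal cells, the contractile cells around them, came from wild-type C57BL/6J mice, for which the labels name no transgene or treatment. They were sorted by their EpCAM and CD49f surface levels, for which the study also stained with lineage antibodies against erythroid cells, endothelial cells and leukocytes, and RNA of the sorted cells was sequenced in bulk in 5 luminal and 5 basal libraries. The labels give neither age nor reproductive stage, and the study gives an age range, of adult mice, for its experiments as a whole. The sample titles name the other cell type in all 10 libraries, whereas the cell type field, the source name and a letter in the library description do not, and the cell type field was followed.

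Homologous recombination repairs broken DNA by copying an intact sister chromatid. The kinase ATM senses the break and activates the kinase CHK2, BRCA1 with its partner BARD1 favours trimming of the ends into single strands, and PALB2 joins BRCA1 to BRCA2, which acts in the strand invasion that follows. Inherited loss of one copy of these genes raises the risk of breast cancer, ovarian cancer or both in people, and BRCA1 and BRCA2 carriers tend to develop different kinds of breast tumour.

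Library totals lay between 13203146 and 17565471 counts in luminal cells and between 13676558 and 17998165 counts in basal cells, so that 1 count was worth 0.0527 to 0.0774 CPM, the depth-scaled unit used throughout. All 9 luminal markers were higher in the luminal libraries, with summed levels of 11100 to 16000 CPM against 1530 to 1900 CPM in basal libraries. All 7 basal markers were higher in the basal libraries, with 10300 to 14600 CPM against 154 to 219 CPM. Markers of other cells were summed in the same way. The summed level of 7 leukocyte markers was 4.57 to 11.8 CPM in luminal and 12.2 to 34.6 CPM in basal libraries, that of 4 endothelial markers 1.58 to 4.06 and 6.27 to 13.7 CPM, that of 4 adipocyte markers 0.611 to 2.21 and 3.95 to 8.88 CPM, that of 3 erythroid markers 4.74 to 18.3 and 0.546 to 2.28 CPM, and that of 5 fibroblast markers 23.7 to 111 and 25.6 to 41.1 CPM. The higher leukocyte sum in basal libraries comes from Cd74, at 20.7 CPM on average, while Cd52 and Lyz2, the other leukocyte markers tested, were higher in luminal cells. The T-cell marker Cd3e and the adipocyte marker Adipoq had 0 counts in all 10 libraries. The part of such cells in the differences between luminal and basal libraries was not tested. In bulk RNA, more cells of a kind and more RNA per cell cannot be told apart.

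Of the 9 genes, Brca1 and Rad51d were higher in luminal cells, Chek2, Brca2 and Atm were higher in basal cells, and Palb2, Bard1, Rad51c and Brip1 did not pass the test (edgeR's quasi-likelihood test, adjusted p under 0.05). With library totals in place of scaling factors, Brca2 and Atm were no longer called (edgeR adjusted p of 0.0693 and 0.129). Cell type differences are common in these data. Over all 14609 genes tested, 64.8% were called, 33.6% with more transcript in luminal cells and 31.2% with more in basal cells, so that 5 calls among 9 genes (55.6%) lie near the background. Among the 5075 genes tested with mean levels in the range of the 9 genes, 0.813 to 13.1 CPM, 58.4% were called. Values of the cell types did not overlap for 4 of the 9 genes, Brca1, Rad51d, Chek2 and Brca2, against 50.1% of all genes tested. The median difference of the 9 genes was -0.03 on the log2 scale, luminal against basal, beside 0.05 over all genes tested, and their median absolute difference was 0.87 beside 0.81. The sign of the first median turned to 0.092 and 0.16 under the upper-quartile and library-total scalings, where the median of all genes was 0.17 and 0.24. It ranged from -0.04 to 0.17 with libraries left out. With at least 10 counts in every library, 6 of the 9 genes were tested and their median was -0.39.

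**Figure D1:**
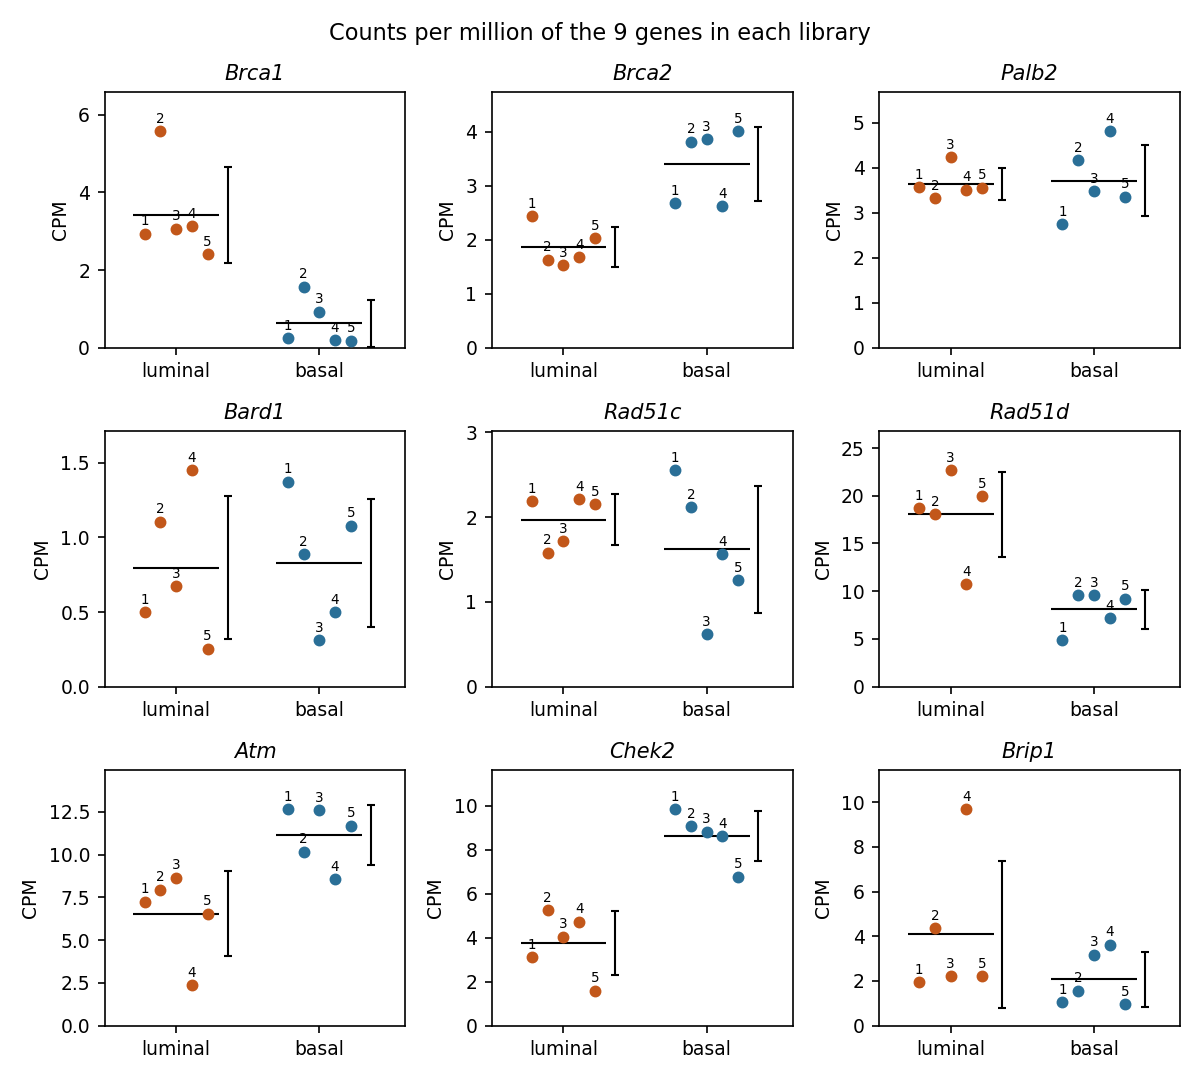
CPM (linear axes from 0) of the 9 genes in the 5 luminal and 5 basal libraries, each point a library marked with its replicate number, the line the mean and the bar beside it 1 SD on either side. Brca1 and Rad51d are higher in every luminal library than in any basal one, and Chek2 and Brca2 are higher in every basal library than in any luminal one.

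The promoters of the called genes are shown because 3 of these genes start close to a gene transcribed the other way, whose levels are given further on. Each sequence holds the 250 bases before the start of 1 RefSeq transcript and the 50 bases after it (GRCm38.p6), 5′ to 3′ along the gene's own strand. That start is the outer edge of the gene for Brca1 but lies 324 bases inside the RefSeq gene for Brca2, 183 bases inside for Chek2 and 157 bases inside for Atm. The printed sequences of Chek2 and Atm therefore overlap the gene, and that of Brca2 lies wholly inside it. A sequence was at hand for 8 of the 9 genes, and Rad51d is named only. Capitals mark matches on either strand to 2 forms of the E2F motif (TTCCCGC and TTGGCGC), the NF-Y box (CCAAT) and the cAMP response element (TGACGTCA), a choice of motifs made with the values known.
Brca1 promoter, chr11:101551906-101552205, reverse strand: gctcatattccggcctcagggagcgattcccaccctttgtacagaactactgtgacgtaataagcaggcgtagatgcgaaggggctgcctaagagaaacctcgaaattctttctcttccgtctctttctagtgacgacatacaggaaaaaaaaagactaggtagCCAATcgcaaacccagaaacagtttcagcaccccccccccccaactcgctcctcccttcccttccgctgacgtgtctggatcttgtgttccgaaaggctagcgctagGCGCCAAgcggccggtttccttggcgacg
Brca2 promoter, chr5:150522371-150522670, forward strand: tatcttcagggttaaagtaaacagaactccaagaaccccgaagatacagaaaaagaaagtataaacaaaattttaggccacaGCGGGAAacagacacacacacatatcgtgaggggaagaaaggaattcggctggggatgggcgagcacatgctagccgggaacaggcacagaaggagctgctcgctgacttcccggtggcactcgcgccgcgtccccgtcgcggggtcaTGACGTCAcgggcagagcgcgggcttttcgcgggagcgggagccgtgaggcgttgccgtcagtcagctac
Chek2 promoter, chr5:110839733-110840032, forward strand: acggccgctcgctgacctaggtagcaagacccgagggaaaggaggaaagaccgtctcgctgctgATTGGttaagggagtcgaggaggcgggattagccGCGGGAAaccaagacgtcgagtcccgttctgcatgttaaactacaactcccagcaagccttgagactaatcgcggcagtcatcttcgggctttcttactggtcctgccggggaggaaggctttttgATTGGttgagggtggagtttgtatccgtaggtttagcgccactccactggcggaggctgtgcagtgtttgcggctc
Atm promoter, chr9:53536622-53536921, reverse strand: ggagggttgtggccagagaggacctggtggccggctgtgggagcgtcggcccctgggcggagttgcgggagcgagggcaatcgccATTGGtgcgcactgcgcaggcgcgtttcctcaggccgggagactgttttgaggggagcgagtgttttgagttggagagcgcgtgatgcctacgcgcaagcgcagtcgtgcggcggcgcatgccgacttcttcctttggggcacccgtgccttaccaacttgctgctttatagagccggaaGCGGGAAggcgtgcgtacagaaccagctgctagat

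The Brca1 promoter held an NF-Y box that began 86 bases before the start of the transcript and an E2F match that began 21 bases past it. The Brca2 promoter held an E2F match 168 bases and a cAMP response element 20 bases before the start, both of them inside the gene. The Chek2 promoter held an E2F match 152 bases before the start and NF-Y boxes at 186 and 26 bases before it. Of these, the E2F match and the nearer box lie inside the gene. In the Atm promoter an NF-Y box lay 165 bases before the start and an E2F match 15 bases past it. Of the 9 promoter entries of these 8 genes, of which Rad51c has 2, 6 held an E2F match of either form, 5 an NF-Y box and 2 a cAMP response element. Over 32851 mouse promoters of this length, the shares were 6.81% for either E2F form (4.6% and 2.45% for each form), 37.4% for the NF-Y box and 1.79% for the cAMP response element. The comparison was not matched for base composition, and the 9 entries hold 53.7% to 64.0% G and C. Whether the 9 genes differ from other promoters of like composition was not tested. The matches are of letters and say nothing of binding in these cells.

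Brca1 (Entrez 12189) lies on chromosome 11 at 101488761 to 101551955, reverse strand (GRCm38.p6, as are the positions that follow). It encodes a ubiquitin ligase subunit that acts at broken ends and at stalled forks. The luminal libraries, replicates 1 to 5, held 2.94, 5.58, 3.07, 3.13 and 2.41 CPM, from 47, 106, 50, 41 and 38 counts. The basal libraries held 0.249, 1.57, 0.929, 0.188 and 0.180 CPM, from 4, 23, 12, 3 and 3 counts. Each luminal library lay above every basal one, and replicate 2 was the highest library of either cell type. The luminal mean was 3.43 ± 1.24 CPM and the basal mean 0.623 ± 0.615 CPM (SD, n = 5 each). The log2 fold change was 2.47 (SE 0.58, 95% interval 1.23 to 3.72, edgeR adjusted p = 0.00184), or 5.55-fold, the largest difference of the 9 genes. It was higher in luminal cells in 5 of 5 same-numbered pairs. The basal value rests on 45 counts over 5 libraries, against 282 in luminal cells, and in basal libraries the SD was about as large as the mean.

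The proliferation marker Mki67 was set beside Brca1 after the values were seen. Mki67 was also highest in replicate 2 of both cell types, where luminal cells had 12.0 CPM (the rest of their libraries 2.06 to 3.62 CPM) and basal cells 9.14 CPM (the rest 0.625 to 4.64 CPM). Basal replicate 3 came second among the basal libraries for both genes. In luminal cells the order differed below replicate 2. Luminal replicate 5 had the lowest Brca1 value, 2.41 CPM, but the highest Mki67 value of the rest, 3.62 CPM. The difference in Mki67 between the cell types did not pass the test (log2 fold change 0.50, 95% interval -1.04 to 2.04, edgeR adjusted p = 0.559), and it turned to -0.26 without luminal replicate 2. Its range, given in the last section, also extends above 0.50. With both libraries numbered 2 left out, an alternative chosen after seeing the data, the Brca1 difference was 2.92 on the log2 scale (edgeR adjusted p = 0.00114). Without luminal replicate 2 alone it was 2.23 (edgeR adjusted p = 0.00653), and without basal replicate 2 alone 3.16 (edgeR adjusted p = 3.75e-04). Of 26 genes of the S, G2 and M phases, 19 were tested, with 4 calls in each direction, all named here with their values known, a share of 42.1% beside 64.8% of all genes tested. Summed over the 26 genes, the level was 150 to 203 CPM in luminal and 201 to 236 CPM in basal libraries. The most abundant of them, on which this sum mainly rests, did not share a direction. On average, luminal and basal libraries held 41.4 and 26.8 CPM of Mcm6, 33.9 and 45.0 CPM of Pcna and 20.1 and 49.8 CPM of Mcm7. Mki67 averaged 4.54 and 3.25 CPM. Higher in luminal cells were Ccna2, the S and G2 phase cyclin (log2 fold change 1.05, edgeR adjusted p = 0.0143), the replication licensing gene Cdc6 (1.83, edgeR adjusted p = 0.0045) and the helicase subunit genes Mcm6 (0.62, edgeR adjusted p = 0.00188) and Mcm5 (1.12, edgeR adjusted p = 0.0343, with the call lost in 12 alternatives). Lower in luminal cells were E2f1 (-2.66, edgeR adjusted p = 0.00304), Ccne2 (-1.96, edgeR adjusted p = 1.64e-05), Mcm7 (-1.31, edgeR adjusted p = 7.31e-07) and Pcna, the sliding clamp of replication (33.9 ± 3.14 against 45.0 ± 9.23 CPM, SD, n = 5 each, log2 fold change -0.41, edgeR adjusted p = 0.0297, but 0.228 with library totals). Top2a showed a log2 fold change of -0.04 (edgeR adjusted p = 0.97), which turned positive in 4 of the other settings, up to 0.55 with voom, and Ccnb1 was too low to be tested. Over 10% of the exon length of Ccna2, Ccne2 and Mcm7 is shared with other genes. In basal replicate 4, with 0.188 CPM of Brca1, Ccna2 (7.19 CPM) and the summed level of the 26 genes (236 CPM) had their highest basal values. Top2a was at 4.44 CPM there. In replicate 2, Top2a was at its highest in each cell type (6.43 and 5.05 CPM). Ccna2 (9.59 CPM) and the summed level (203 CPM) were highest among luminal libraries in replicate 2. The part of cycling cells in the Brca1 values was not tested.

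Bard1 (Entrez 12021, chromosome 1, 71027535 to 71103141, reverse strand) encodes the obligate partner of BRCA1, without which the BRCA1 protein is unstable. Its luminal libraries held 0.500, 1.11, 0.675, 1.45 and 0.254 CPM. Its basal libraries held 1.37, 0.887, 0.309, 0.500 and 1.08 CPM. The cell types overlapped along nearly their whole range, and the libraries rest on 4 to 22 counts each. The log2 fold change was -0.07 with a 95% interval of -1.25 to 1.10 (edgeR adjusted p = 0.916), which leaves room for a difference of more than 2-fold either way, and its sign turned with the scaling (0.05 with upper-quartile factors and 0.11 with library totals).

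Brip1 (Entrez 237911, chromosome 11, 86058136 to 86201215, reverse strand) encodes the helicase FANCJ, which binds the BRCT repeats of BRCA1. The luminal libraries held 1.94, 4.37, 2.21, 9.70 and 2.22 CPM and the basal ones 1.06, 1.57, 3.17, 3.63 and 0.959 CPM. Luminal replicate 4 stood above all other libraries, luminal replicate 2 also lay above the basal range, and the remaining 3 fell inside it. The log2 fold change was 0.97 (SE 0.53, 95% interval -0.16 to 2.10, edgeR adjusted p = 0.121), with the luminal library higher in 4 of 5 pairs. Without luminal replicate 4 it was 0.38 (edgeR adjusted p = 0.491).

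Palb2 (Entrez 233826, chromosome 7, 122107262 to 122132980, reverse strand) bridges BRCA1 and BRCA2. Its luminal libraries held 3.56, 3.32, 4.23, 3.51 and 3.55 CPM and its basal ones 2.74, 4.16, 3.48, 4.81 and 3.36 CPM. The luminal values sat inside the basal range in all 5 libraries. The means were 3.64 ± 0.348 and 3.71 ± 0.796 CPM (SD, n = 5 each), and the log2 fold change was -0.03 with a 95% interval of -0.59 to 0.53 (edgeR adjusted p = 0.929). Its sign, too, turned with the scaling (0.09 with upper-quartile factors, 0.16 with library totals). Of its exons, 414 bases are shared with another annotated gene, Gm16326, on the opposite strand.

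Brca2 (Entrez 12190, chromosome 5, 150522297 to 150570147, forward strand) encodes a mediator of recombination that binds single-stranded DNA, and it went the other way from Brca1. The luminal libraries held 2.44, 1.63, 1.53, 1.68 and 2.03 CPM, from 22 to 39 counts. The basal libraries held 2.68, 3.82, 3.87, 2.63 and 4.02 CPM, from 42 to 67 counts. Every basal library lay above every luminal one, although basal replicates 1 and 4 came close to luminal replicate 1. The means were 1.86 ± 0.373 CPM in luminal and 3.40 ± 0.688 CPM in basal cells (SD, n = 5 each), a log2 fold change of -0.87 (SE 0.30, 95% interval -1.52 to -0.21, edgeR adjusted p = 0.022), or 1.82-fold higher in basal cells. Brca2 was higher in basal cells in 5 of 5 pairs. The call is a narrow one. With same-numbered libraries paired, the log2 fold change was -0.86 and the edgeR adjusted p was 0.059. With library totals in place of scaling factors they were -0.68 and 0.0693. It also missed the threshold without basal replicate 2, 3 or 5, or without both libraries numbered 2, with log2 fold changes of -0.83, -0.81, -0.80 and -0.78 and edgeR adjusted p of 0.0524, 0.0555, 0.062 and 0.0927.

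**Figure D2:**
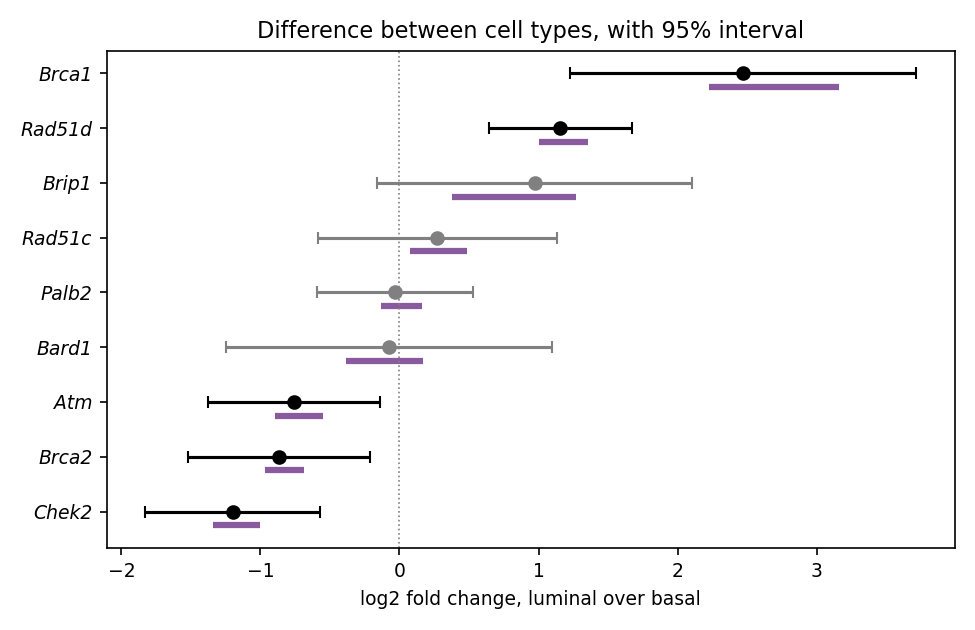
Log2 fold change of each of the 9 genes, luminal over basal (n = 5 libraries each), as points with 95% intervals, black where the adjusted p was under 0.05 and grey otherwise. The purple bar under each point is the range of the value over the alternative settings and left-out libraries, which runs from 2.23 to 3.16 for Brca1 and from -0.97 to -0.68 for Brca2.

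Rad51d (Entrez 19364, chromosome 11, 82871960 to 82890624, reverse strand) encodes a subunit of the BCDX2 complex, which promotes strand invasion. The luminal libraries held 18.7, 18.1, 22.7, 10.8 and 19.99 CPM and the basal ones 4.86, 9.62, 9.60, 7.19 and 9.23 CPM. Every luminal library exceeded every basal one, with luminal replicate 4 the nearest to the basal range. The log2 fold change was 1.16 (SE 0.24, 95% interval 0.64 to 1.67, edgeR adjusted p = 7.13e-04), or 2.23-fold, in the same direction in 5 of 5 pairs. It stayed called under all 19 alternatives run for it, at values of 1.01 to 1.36.

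Rad51c (Entrez 114714, chromosome 11, 87376645 to 87404954, reverse strand) encodes another subunit of the same complex. Its luminal libraries held 2.19, 1.58, 1.72, 2.21 and 2.16 CPM and its basal libraries 2.56, 2.12, 0.619, 1.56 and 1.26 CPM. The highest and the lowest value were both basal, so the cell types overlapped. The log2 fold change was 0.27 with a 95% interval of -0.58 to 1.13 (edgeR adjusted p = 0.567), and it was 0.07 without basal replicate 3. Whether Rad51d and Rad51c differ from each other in their response to cell type was not tested.

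Chek2 (Entrez 50883, chromosome 5, 110839800 to 110874140, forward strand) encodes the checkpoint kinase that ATM activates. The luminal libraries held 3.13, 5.27, 4.05, 4.73 and 1.59 CPM. The basal libraries held 9.85, 9.07, 8.82, 8.63 and 6.77 CPM. The lowest basal library lay above the highest luminal one, and replicate 5 was the lowest of each cell type. The means were 3.75 ± 1.45 and 8.63 ± 1.14 CPM (SD, n = 5 each). The log2 fold change was -1.20 (SE 0.29, 95% interval -1.83 to -0.57, edgeR adjusted p = 0.00249), higher in basal cells in 5 of 5 pairs. It stayed called under all 19 alternatives, at values of -1.34 to -1.003.

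Atm (Entrez 11920, chromosome 9, 53437122 to 53536828, reverse strand) encodes the apical kinase of the double-strand break response. The luminal libraries held 7.25, 7.95, 8.65, 2.37 and 6.53 CPM and the basal libraries 12.7, 10.2, 12.6, 8.57 and 11.7 CPM. The ranges touched, since luminal replicate 3 exceeded basal replicate 4, and luminal replicate 4 was far below the other luminal libraries. The means were 6.55 ± 2.47 and 11.1 ± 1.76 CPM (SD, n = 5 each), a log2 fold change of -0.76 (SE 0.29, 95% interval -1.38 to -0.14, edgeR adjusted p = 0.0321), or 1.69-fold higher in basal cells, and all 5 pairs had this direction. With library totals in place of scaling factors it was -0.55 and was no longer called (edgeR adjusted p = 0.129), and the call was also lost with upper-quartile factors and without luminal replicate 5 or basal replicate 1, 3 or 5. The longest Atm transcript has 62 exons, and the aligner named by the submitters does not place reads across exon junctions, which bears on the level of both cell types.

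Levels were compared between genes as CPM per kilobase of exon. In luminal cells Rad51d was highest at 4.86 ± 1.20 CPM per kilobase (SD, n = 5), followed by Chek2 at 1.25 ± 0.484, Atm at 0.634, Brip1 at 0.548, Palb2 at 0.495, Rad51c at 0.450, Brca1 at 0.402 ± 0.145, Bard1 at 0.141 and Brca2 at 0.137. Between neighbours in this order, the libraries did not overlap only from Rad51d to Chek2 and from Brca1 to Bard1. In basal cells Chek2 came first at 2.88 ± 0.379 CPM per kilobase (SD, n = 5), then Rad51d at 2.18 ± 0.557, Atm at 1.08, Palb2 at 0.506, Rad51c at 0.370, Brip1 at 0.279, Brca2 at 0.249, Bard1 at 0.147 and Brca1 at 0.073 ± 0.0721. Here only the steps from Rad51d to Atm and from Atm to Palb2 were free of overlap. Brca1 thus stood seventh of 9 in luminal cells and last in basal cells. Reads across exon junctions are not placed by the aligner named, and the longest transcripts have from 9 exons (Rad51c) to 62 (Atm). The effect on this order was not tested. With the longest transcript as the length, the level of Palb2 was 0.97 CPM per kilobase in luminal and 0.99 in basal cells, Palb2 then stood above Atm in luminal cells, and Brca1 stood sixth at 0.521, above Rad51c at 0.50.

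Within libraries, Brca1 exceeded Brca2 per kilobase in 5 of 5 luminal and in 0 of 5 basal libraries. The ratio of Brca1 to Brca2 was 1.90 to 5.47 in luminal libraries, with a median of 2.98, and 0.0716 to 0.657 in basal libraries, with a median of 0.149. Brca1 exceeded Bard1 in 5 of 5 luminal libraries, with a median ratio of 3.35 and a range of 1.43 to 6.30, and in 2 of 5 basal libraries, with a median ratio of 0.249 and a range of 0.111 to 1.99, so that the ranges of this ratio overlapped. The BRCA1 and BARD1 proteins act as a pair. Palb2 exceeded Brca2 in all 10 libraries, with median ratios of 3.78 in luminal and 1.90 in basal cells, and Rad51d exceeded Rad51c in all 10, with median ratios of 10.9 and 5.43. Atm exceeded Chek2 in 1 of 5 luminal libraries, in 0 of them with the longest transcript as length, and in 0 of 5 basal libraries. These ratios are descriptions of values already given and carry no test of their own.

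**Figure D3:**
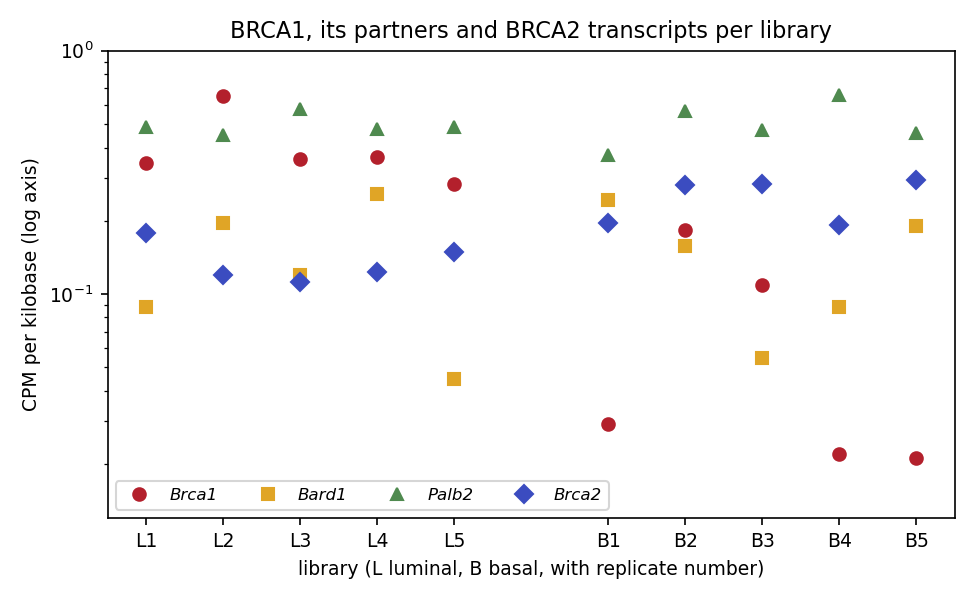
CPM per kilobase (log axis) of Brca1, Bard1, Palb2 and Brca2 in each of the 10 libraries, L for luminal and B for basal with the replicate number. Brca1 lies above Brca2 in the 5 luminal libraries and below it in the 5 basal libraries, while Palb2 stays above Brca2 throughout.

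Of the 9 genes, 6 start within 1 kilobase of a gene transcribed the other way, by the outer edges of the genes in GENCODE, and these neighbours were looked up after the values of the 9 genes were seen. Brca1 starts 194 bases from Nbr1, an autophagy receptor gene, and Nbr1 was at 192.9 ± 25.9 CPM in luminal and 209.5 ± 15.3 CPM in basal cells (SD, n = 5 each). Its log2 fold change was -0.12 with a 95% interval of -0.40 to 0.16 (edgeR adjusted p = 0.442), and its sign turned to 0.08 with library totals. Nbr1 was higher in the basal library in all 5 same-numbered pairs. The Nbr1 interval lies wholly below that of Brca1, 1.23 to 3.72. Chek2 starts 202 bases from Hscb, a co-chaperone of iron-sulphur cluster assembly, and the genes of this pair went opposite ways. Hscb libraries held 18.6, 26.8, 24.7, 37.9 and 24.1 CPM in luminal and 3.74, 5.39, 5.11, 4.19 and 2.10 CPM in basal cells. All luminal values of Hscb were above all basal ones, with a log2 fold change of 2.69 (SE 0.26, 95% interval 2.12 to 3.25, edgeR adjusted p = 6.76e-07) against -1.20 for Chek2.

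Atm starts 307 bases from Npat, which drives histone gene transcription at the start of S phase, and both were higher in basal cells. Npat libraries held 18.5, 24.2, 20.7, 13.2 and 18.5 CPM in luminal and 55.8, 43.5, 44.0, 33.6 and 44.3 CPM in basal cells. The basal values of Npat were all above the luminal ones, with a log2 fold change of -1.21 (SE 0.18, edgeR adjusted p = 4.02e-05). Rad51c starts 111 bases from Tex14, which was higher in luminal cells (log2 fold change 1.499, SE 0.44, edgeR adjusted p = 0.00842), whereas Palb2 with Dctn5 at 56 bases (0.25, edgeR adjusted p = 0.222) and Brip1 with Brip1os at 177 bases (-0.33, edgeR adjusted p = 0.0806) gave no call for either gene of the pair. In all 5 same-numbered library pairs, Dctn5 was higher in the luminal library and Brip1os in the basal one. No annotated exon of Brca1, Chek2 or Atm shares bases with an exon of another gene. How the counting treated strand is not given in the sources used here.

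**Figure D4:**
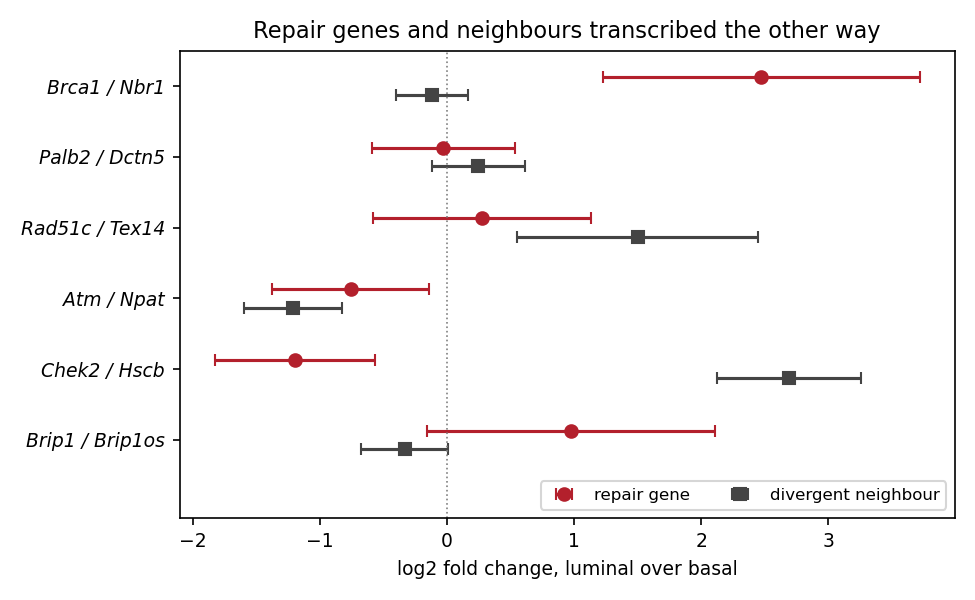
Log2 fold change, luminal over basal, with 95% intervals (n = 5 libraries per cell type) of 6 of the 9 genes (circles) and of the neighbour that starts within 1 kilobase on the other strand (squares). Chek2 and Hscb lie on opposite sides of 0, Atm and Npat on the same side, and Nbr1 near 0 below Brca1.

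The same comparison was read for 87 other repair genes in 7 lists written from general knowledge, also with earlier results known, of which 81 were tested. Of these, 24 were higher in luminal cells, 17 were higher in basal cells and 40 were not called, a share called of 50.6% beside 64.8% of all genes tested, and their median log2 fold change was 0.29 beside 0.05. In end resection, 3 of 7 genes tested were higher in luminal cells (luminal-high) and 1 was higher in basal cells (basal-high), with a median of 0.56 and 57.1% called. The exception was Rbbp8, which encodes the BRCA1-binding resection factor CtIP. Rbbp8 was at 26.3 to 49.3 CPM in luminal and 278 to 489 CPM in basal libraries, without overlap, and its log2 fold change of -3.22 (SE 0.20, edgeR adjusted p = 7.47e-09) went in the opposite direction to Brca1. The helicase genes Blm (log2 fold change 1.07) and Wrn (1.02) and the MRN subunit gene Rad50 (0.56) were higher in luminal cells, with edgeR adjusted p of 6.69e-05, 1.55e-04 and 0.0153.

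Of the 13 genes of RPA and the recombination mediators, 3 were luminal-high (5 without luminal replicate 4) and 3 basal-high, with a median of 0.25 and 46.2% called beside 64.8% of all genes tested. Rad51b, whose product works beside RAD51C and RAD51D, had a log2 fold change of 1.35 (edgeR adjusted p = 0.00221), and Sem1, the small acidic partner of BRCA2, one of 0.93 (edgeR adjusted p = 0.00432). The third was Rpa3, for the smallest subunit of the RPA complex that coats single strands (0.91, edgeR adjusted p = 0.00401). Higher in basal cells were Xrcc3 (-0.65, edgeR adjusted p = 0.0105), whose product pairs with RAD51C, Rad52 (-0.63, edgeR adjusted p = 0.0142) and Sfr1 (-0.52, edgeR adjusted p = 0.0047), and with library totals none of the 3 was called (edgeR adjusted p of 0.0689, 0.0952 and 0.0673). In strand exchange and resolution, 2 of 13 tested genes were higher in luminal cells, led by Mcm8 (1.74, edgeR adjusted p = 0.00228). In basal cells, 3 were higher, led by the nuclease subunit gene Eme1 (-1.01, edgeR adjusted p = 0.00212), with 38.5% of the list called beside the same 64.8%. Of the basal-high genes, Slx4 and Mcm9 were not called with upper-quartile factors (edgeR adjusted p of 0.0717 and 0.181) or library totals (edgeR adjusted p of 0.114 and 0.451). The median of -0.07 turned to 0.11 without luminal replicate 5 and to 0.13 with library totals, where that of all genes tested was 0.24. Over 10% of the exon length of Eme1 and of Mcm9 is shared with other genes.

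In the BRCA1-A complex, which holds BRCA1 at ubiquitin-marked chromatin, 3 of 5 genes were luminal-high and none was basal-high, with a median of 0.51. The share called, 60%, lies near the 64.8% of all genes tested. Babam2 was at 70.8 to 193 CPM in luminal against 24.7 to 35.7 CPM in basal libraries (log2 fold change 1.82, edgeR adjusted p = 2.65e-05), and Babam1 at 32.0 to 44.2 against 9.92 to 15.3 CPM (1.57, edgeR adjusted p = 1.73e-06). Uimc1, the ubiquitin reader RAP80, was 0.51 higher on the log2 scale (edgeR adjusted p = 0.00345), while Abraxas1, the scaffold that binds BRCA1, had a log2 fold change of 0.29 (95% interval -0.26 to 0.85, edgeR adjusted p = 0.338). The cell types did not overlap for Babam1 or Babam2.

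Among the Fanconi anaemia genes, which repair crosslinks together with BRCA2, PALB2, BRIP1 and RAD51C, 3 of 13 tested were luminal-high and 4 basal-high, with a median of 0.40 and 53.8% called beside 64.8% of all genes tested. Fancg, a subunit of the core complex, was higher in luminal cells (16.6 ± 6.11 against 2.17 ± 1.71 CPM, SD, n = 5 each, log2 fold change 2.93, edgeR adjusted p = 8.35e-05). Fancc, another core subunit, was lower in luminal cells (-1.27, edgeR adjusted p = 4.13e-04), with over 10% of its exon length shared with other genes. Fancd2, the subunit that becomes ubiquitinated, had a log2 fold change of 0.65 (95% interval -0.33 to 1.62, edgeR adjusted p = 0.227). In damage signalling beside ATM and CHK2, 2 of 13 were luminal-high and 3 basal-high, with a median of -0.03 and 38.5% called beside the same 64.8%. With library totals this median turned to 0.18, where that of all genes tested was 0.24. Prkdc, which encodes the DNA-PK catalytic subunit, had a log2 fold change of 1.43 (edgeR adjusted p = 2.16e-05) against -0.76 for its relative Atm, and Atr, the third kinase of the family, one of -0.33 (95% interval -0.85 to 0.19, edgeR adjusted p = 0.245). Chek1, the kinase downstream of ATR, had a log2 fold change of 0.12 (95% interval -0.73 to 0.98, edgeR adjusted p = 0.802), beside -1.20 for Chek2.

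End joining, the pathway that competes with recombination for broken ends, had 8 of 17 tested genes luminal-high and 3 basal-high, with a median of 0.53. The share called, 64.7%, was that of all genes tested (64.8%), and with limma voom 5 genes were luminal-high. Mad2l2, the shieldin subunit REV7 that limits resection, was at 36.9 ± 5.41 CPM in luminal and 6.16 ± 0.993 CPM in basal cells (SD, n = 5 each, log2 fold change 2.58, edgeR adjusted p = 1.33e-08). The genes of the Ku heterodimer, which caps broken ends, went opposite ways. Xrcc6, for Ku70, was at 158 to 187 CPM in luminal and 46.9 to 56.2 CPM in basal libraries (log2 fold change 1.71, edgeR adjusted p = 1.68e-08). Xrcc5, for Ku80, was at 7.42 to 9.07 CPM in luminal and 17.9 to 26.4 CPM in basal libraries (-1.38, edgeR adjusted p = 6e-06). Trp53bp1, whose product opposes BRCA1 at broken ends, had a log2 fold change of -0.34 (95% interval -0.69 to 3e-04, edgeR adjusted p = 0.074), with over 10% of its exon length shared with another gene.

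**Figure D5:**
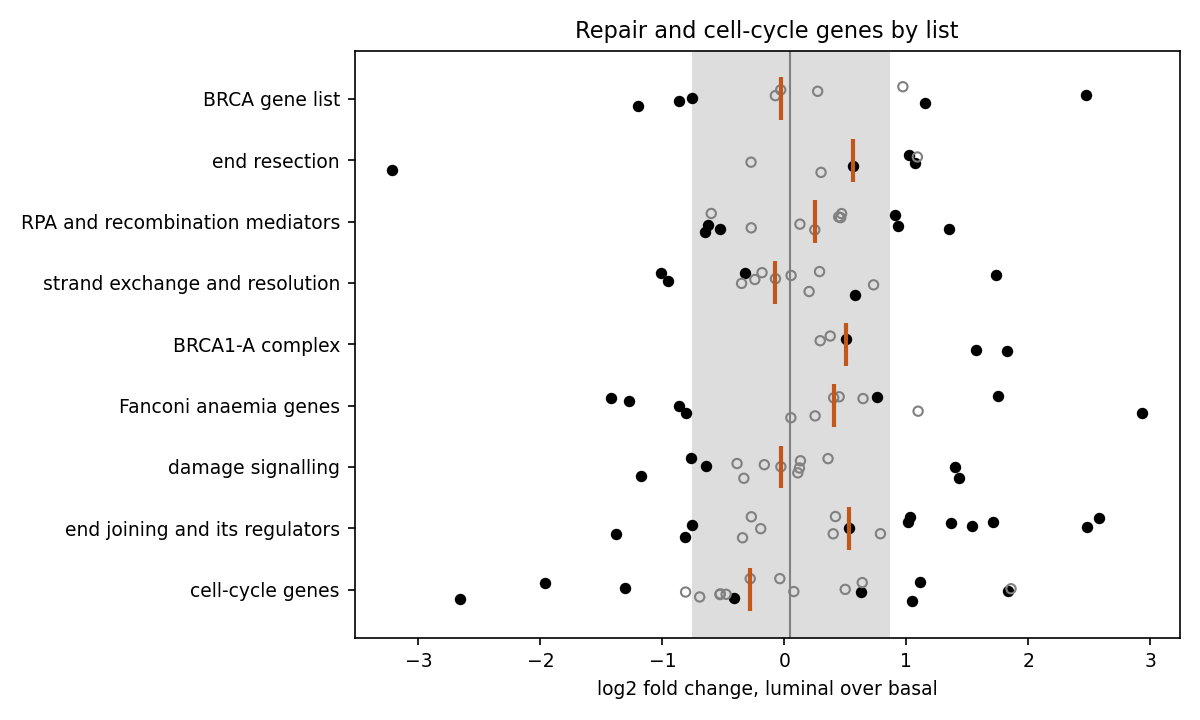
Log2 fold change, luminal over basal, of each tested gene of the 9-gene list, the 7 other repair lists and the cell-cycle list, filled where the adjusted p was under 0.05, with the list median as an orange bar. The grey line is the median of all 14609 genes tested and the grey band holds the middle 50% of them, and each list has genes on both sides except the BRCA1-A complex.

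Genes with a library profile near that of Brca1 or Brca2 were sought among 11633 genes with a mean of at least 5 CPM, by the root mean square difference of log2(CPM + 1) over the 10 libraries after each profile's mean was removed. The nearest to Brca1 were Polk (0.222), Dcaf4 (0.252) and Rcor2 (0.252), and the nearest to Brca2 were Setd7 (0.114), Efr3a (0.117) and Ctnnd1 (0.118). With 0.1 in place of 1 as the pseudocount, none of these 3 genes remained among the nearest 3 for either gene, so the choice of genes rests on the scale.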

How the data were processed

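Whole-number read counts of each gene, not normalized, were deposited by the authors. The submitters' processing notes name cutadapt 4.2 and Bowtie2 2.3.5.1, and the study aligned mouse reads to mm10. The study describes fewer replicates per condition than 5, and these steps were taken to apply here. Counting software, annotation and the use of strand and of multiply mapped reads are not given in the sources used here.

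Genes were named by Entrez identifier from RefSeq GRCm38.p6 (24570 of 24594 matched), and exon lengths were taken from GENCODE. After filterByExpr (minimum count 10, total 15) 14609 genes were tested and 9985 dropped. Cell types were compared with edgeR 4.0.16 (R 4.3.3), TMM factors and the two-sided quasi-likelihood F-test, with Benjamini-Hochberg adjustment over all genes tested and a threshold of 0.05. The SE was |log2 fold change| over the square root of F, and CPM uses TMM-scaled totals. DESeq2 1.42.0 and limma 3.58.1 served as alternatives. The scripts were tested on simulated data.

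Luminal and basal libraries with 1 replicate number begin with a common number in their description, read as the animal, from which the pairing comes. Deviations from group means correlated by 0.0442 on average (-0.134 to 0.252) in these pairs and by -0.00718 otherwise. No library pair agreed within sampling noise, with chi-square per degree of freedom of at least 34.5 (luminal) and 15.4 (basal). The study calls its RNA-seq replicates biological, and the labels do not name the animals, so p-values measure the spread between libraries. A gene of the lists is not reported here. The members and lists were chosen with earlier results of these data known. From each other list, called genes with the largest changes (up to 3 in each direction), partners of the 9 genes, the cell-cycle genes Mki67, Top2a, Pcna and Ccnb1, and the 3 nearest profiles could be named.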

Additional observations from a re-analysis of the deposited data

Results flagged for a closer look

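In 7 of 134 groups of 5 libraries examined, 1 library lay far from the rest (Dixon's test), where about 6.7 would be met by chance at 1 in 20. Luminal replicate 2 held 5.58 CPM of Brca1, and the rest of its group 2.41 to 3.13 CPM. In the same library Mki67 was at 12.0 CPM against 2.06 to 3.62 CPM, and Cdk1, the mitotic kinase gene, at 6.43 CPM against 0.491 to 1.52 CPM. Luminal replicate 3 held 4.23 CPM of Palb2, with 3.32 to 3.56 CPM elsewhere in luminal cells. Rad51b was at 4.37 CPM in basal replicate 1 against 2.04 to 2.48 CPM. Chek1 was low in basal replicate 4, at 1.06 CPM against 2.28 to 2.62 CPM. Luminal replicate 5 held 39.3 CPM of Pcna, and the rest 31.2 to 33.4 CPM. The cause of these values was not tested.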

How the results depend on the processing

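Each comparison was repeated with DESeq2 size factors, upper-quartile factors or library totals in place of TMM factors, without a filter and with at least 10 counts in every library, with DESeq2, with limma voom, with a replicate block, without each library in turn and, chosen after seeing the data, without both libraries numbered 2. Of 168 values of the 9 genes, 144 kept their direction and their side of the threshold, 12 lost the call and 12 changed sign. Brca1, Rad51d and Chek2 kept their calls in every alternative in which they were tested. With at least 10 counts in every library, 6 of the 9 genes were tested, Brca1 not among them, leaving 1 gene higher in luminal cells and a median of -0.39. Brca2 lost its call with library totals (-0.68, edgeR adjusted p = 0.0693) and with the replicate block, which pairs same-numbered libraries (-0.86, edgeR adjusted p = 0.059), and ranged from -0.97 to -0.78 with libraries left out (-0.80 at most with 1 left out). Atm lost it with upper-quartile factors (-0.64, edgeR adjusted p = 0.0632) and library totals (-0.55, edgeR adjusted p = 0.129) and ranged from -0.90 to -0.55 with libraries left out. The block changed no other call of the 9 genes. Palb2 turned to 0.092 and 0.16 with the upper-quartile and library-total scalings and 0.045 without both libraries numbered 2, with a range of -0.13 to 0.072 over left-out libraries, and Bard1 to 0.055 and 0.11 under those scalings, with a range of -0.38 to 0.17. These scalings moved the median over all genes by 0.12 (upper-quartile, to 0.17) and 0.19 (library totals, to 0.24), so that relative to the median of all genes the 9 genes moved less. That median was 0.00749 with DESeq2, 0.0073 with its size factors, 0.021 without a filter and 0.0187 to 0.066 with libraries left out. With library totals, 1 of the 9 genes was higher in basal cells (1 to 3 with libraries left out), 0 of the RPA and mediator list were, and the median of the 7 lists was 0.48. The median of the RPA and mediator list was 0.38 with upper-quartile factors, 0.42 with library totals, 0.12 with voom, 0.14 with the block and 0.19 to 0.36 with libraries left out, and 3 to 5 of its genes were higher in luminal cells with libraries left out. In strand exchange and resolution, 1 gene was higher in basal cells under both of those scalings (1 to 3 with libraries left out) and 1 was higher in luminal cells under the stricter filter and without both libraries numbered 2 (1 to 2 with libraries left out). End joining had 5 genes higher in luminal cells with voom, and the cell-cycle list 2 without both libraries numbered 2 (2 to 5 with libraries left out). Top2a turned to 0.071, 0.15, 0.55 and 0.27 with upper-quartile factors, totals, voom and the block (-0.64 to 0.28 with libraries left out), Mki67 ranged from -0.26 to 1.37 and Chek1 from -0.19 to 0.27, the latter -0.155 without both libraries numbered 2. Nbr1 turned to 0.0024 and 0.078 with upper-quartile factors and library totals. With the longest transcript as length, levels were 0.174 and 0.317 CPM per kilobase for Brca2 (luminal and basal), 0.97 and 0.99 for Palb2 and 3.79 for Chek2 in basal cells. With a pseudocount of 0.1, 0 of the 3 genes nearest to Brca1 and 0 of those nearest to Brca2 were shared. The cause of these changes was not tested beyond what each setting itself changes. Depth limits Bard1 and the basal value of Brca1 most, with 4 to 22 and 3 to 23 counts per library.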
